A study of Mus musculus with 12 samples.

Results

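The gene segments of the T cell receptor alpha and beta chains were examined in ATAC-seq peak lists, which record the accessible stretches of chromatin that the transposase Tn5 can enter. Members were all genes of the GRCm38.p6 gene table whose symbol starts with Trav, Traj, Trbv or Trbj. They numbered 239 of 49997 genes. The V alpha (Trav, 130 segments) and J alpha (Traj, 60 segments) genes lie on chromosome 14, and the V beta (Trbv, 35 segments) and J beta (Trbj, 14 segments) genes on chromosome 6. A peak was assigned to a segment when it overlapped the gene or the 2 kb on either side, and each peak was counted once. Merging the overlapping peaks of all libraries gave 110642 regions, of which 116 lay at a segment.

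During T cell development the recombinase RAG joins a V segment to a J segment in the alpha locus, and a V, a D and a J segment in the beta locus, and the DNA between the joined segments is removed from the chromosome. V segments outside the removed stretch stay on the chromosome. Each V segment has its own promoter and can be open or closed. Most delta chain genes lie between V alpha and J alpha, and some V delta genes lie among the last V alpha segments. Strong enhancers are known beyond the constant genes Trac and Trbc2. Mature CD4+ T cells have finished recombination, and a population of them uses many different V and J segments.

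The cells were CD4+ T cells from the spleen of C57BL/6J mice (WT) or of mice whose strain label is C57BL/6J-Ets1-SE-KO, a knockout of a super-enhancer, that is, a dense cluster of enhancers, of the transcription factor gene Ets1 (KO). Naive cells were isolated by negative selection, and part of them was cultured for 6 days on anti-CD3 with soluble anti-CD28. Th1 cultures also received IL-12 and IL-2, and Th2 cultures IL-4 and an antibody to interferon gamma. Naive cells were not cultured, so culture and polarization cannot be told apart here. Each of the 6 groups held 2 libraries. The 2 naive libraries of each genotype were technical replicates of 1 biological sample, so that genotype and sample cannot be told apart in naive cells. The titles name 2 biological replicates for each Th1 and Th2 group. The Th2 KO libraries carry Th1 in the title and Th2 in the source name, and were taken as Th2. Within 20 kb of Il4, the defining Th2 cytokine gene, they had 7 and 5 peaks, as many as the Th2 WT libraries (7 and 5), against 4 and 3 in Th1 KO. Within 20 kb of Ifng, the Th1 cytokine gene, they had 2 and 1, against 4 and 4 in Th1 KO. Other lineage genes looked at were Il13 (6 and 4 against 3 and 3), Gata3 (5 and 6 against 5 and 4) and Tbx21 (5 and 3 against 5 and 4). Tbx21 thus did not separate the Th2 KO from the Th1 KO libraries, and Gata3 did so little. These genes were chosen after the conflict in the labels was seen.

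The lists held 34746 to 56357 peaks, and the number of reads behind them is unknown. Where a peak is absent, none passed the caller's threshold, which need not mean closed chromatin. Naive WT lists held 52571 and 56195 peaks and naive KO lists 41075 and 43823. Peaks were found at 8 or 9 of the 9 CD4 T cell marker genes (such as Cd3e, Cd4 and Lck) in each of the 12 libraries. Scores of the peak caller depend on the library, so they are given as the percentile of a peak within its own list, where 100 is the strongest peak. In such bulk samples, fewer cells with an open segment and less accessibility per cell cannot be told apart. An exact test of 2 against 2 libraries gives a two-sided p of 2 in 6 at the smallest, which cannot pass 0.05, and no test was run. A difference was counted where a region had a peak in both libraries of the first group and in neither of the second, and the share is given beside that of all regions of the genome open in both libraries of the first group.

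V alpha segments had far more peaks in naive WT cells than in any other group. The naive WT libraries had 42 and 45 peaks at Trav segments and the naive KO libraries 16 each. Th1 WT libraries had 4 each, Th1 KO libraries 3 and 4, Th2 WT libraries 4 each and Th2 KO libraries 5 and 6. Every naive WT library lay above every naive KO library, and every naive library above every Th1 and Th2 library. The means were 43.5 ± 2.12 in naive WT and 16 ± 0 in naive KO (SD of 2 technical replicates of 1 biological sample each, so the spread between animals is not measured), a ratio of 2.72. Per 10000 peaks of the list the means were 8 and 3.77, a ratio of 2.12. Against Th1 WT and Th2 WT the ratio was 10.9 in each case, or 7.77 and 10.6 per 10000 peaks.

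J alpha segments also had their highest numbers in naive WT cells. There were 11 and 9 peaks in naive WT, 2 and 4 in naive KO, 0 and 2 in Th1 WT, 1 and 1 in Th1 KO, 4 and 3 in Th2 WT and 6 and 3 in Th2 KO. Both naive WT libraries lay above all others, and the range of naive KO overlapped those of Th1 WT, Th2 WT and Th2 KO. V beta segments differed less. They had 31 and 30 peaks in naive WT, 19 and 18 in naive KO, 18 and 15 in Th1 WT, 11 and 16 in Th1 KO, 21 and 19 in Th2 WT and 16 and 16 in Th2 KO. The naive WT libraries were the highest, and the naive KO libraries lay within the range of the Th1 and Th2 libraries. Per 10000 peaks the naive WT to KO ratio of Trbv was 1.29. J beta segments had 2 or 3 peaks in every library.

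**Figure D1:**
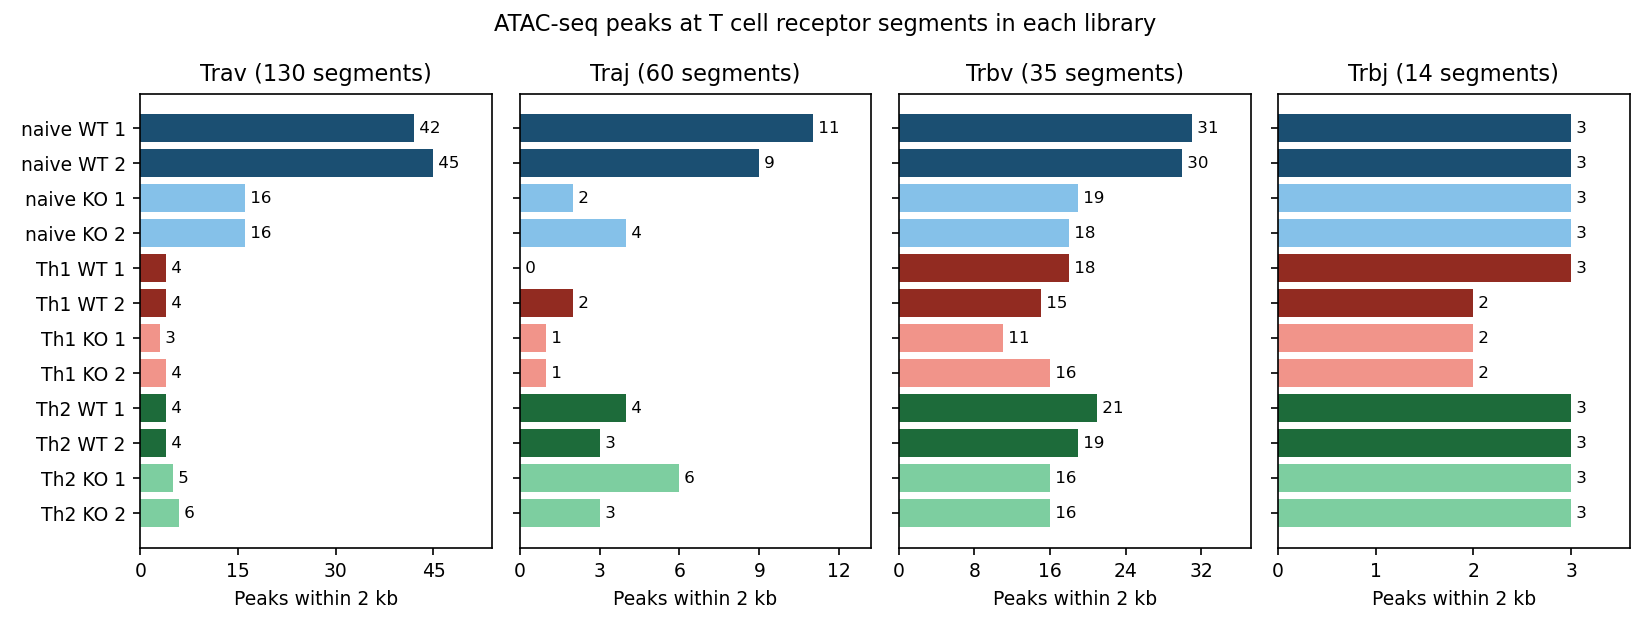
Number of ATAC-seq peaks within 2 kb of Trav, Traj, Trbv and Trbj segments (x axes, each panel with its own scale) in each of the 12 libraries (y axis, 1 bar per library, WT in dark and KO in light colour). Trav peaks fall from 42 and 45 in naive WT to 16 in naive KO and 3 to 6 in the Th1 and Th2 libraries, whereas Trbj stays at 2 or 3.

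By segments, 124 of the 239 had a peak in at least 1 library and 115 in none. Both naive WT libraries had a peak at 96 segments, both naive KO libraries at 43, and both libraries of Th1 WT, Th1 KO, Th2 WT and Th2 KO at 26, 28, 38 and 40. For Trav alone these numbers were 37, 10, 2, 2, 2 and 3 of 130. For Trbv they were 22, 16, 13, 11, 18 and 16 of 35. J segments lie so close together that a single region can fall within 2 kb of several of them: the 12 Trbj segments with a peak shared 3 regions, and the 39 Traj segments shared 16. Of the 116 regions, 65 (56.0%) had peaks in naive libraries only, against 25.3% of all regions of the genome. For Trav this share was 83.0% (44 of 53), for Traj 43.8% (7 of 16) and for Trbv 31.8% (14 of 44).

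In naive cells, the KO sample lacked many of the segment regions of the WT sample. Of 77 segment regions open in both naive WT libraries, 30 (39.0%) had no peak in either naive KO library, where 20.9% of all regions did. For Trav the count was 19 of 38 regions, or 50.0%. A further 9 Trav regions had a peak in only 1 KO library and 10 in both. For Traj the count was 5 of 9 (55.6%), for Trbv 6 of 27 (22.2%, close to the genome) and for Trbj 0 of 3. All 9 Traj regions lay in the 2 weakest of the 4 bands of strength described below. In the other direction, 0 of 28 segment regions open in both naive KO libraries were absent from both naive WT libraries, where 8.67% of all regions were. Without naive KO replicate 1 it was 1 of 40, beside 13.2%. Leaving out each naive library gave 37 to 40 regions in place of the 30, of 77 to 87 open. The share of all regions was then 24.8% to 29.7%. Leaving out a library loosens the rule, so these counts cannot fall.

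The V alpha regions found in both naive WT libraries and neither naive KO library were mostly of middling or low rank. The strongest lay at Trav14-3 (chr14:53762800-53763221), with percentiles of 77.9 and 75.7. The region at Trav12-4 (chr14:53778012-53778419) ranked at 58.6 and 59.9, that at Trav14-2 (chr14:53640429-53640778) at 63.2 and 49.6 and that at Trav10d (chr14:52810552-52811035) at 54.4 and 63.3. These 4 had no peak in a naive KO library, and the Trav10d region alone among them had a peak elsewhere, at percentile 0.41 in a Th2 KO library. Others of the 19 lay at Trav13-1, Trav13-2 (2 regions), Trav15-3, Trav12-3, Trav3-3, Trav6-4 and Trav6-7-dv9. At the weak end, the region at Trav15-1-dv6-1 had percentiles of 4.99 and 3.14. Over both naive WT lists, the median percentile was 32.8 for Trav regions absent from naive KO and 63.3 for the other Trav regions open in naive WT.

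Weak regions were absent from naive KO more often across the whole genome, so the Trav regions were also read within 4 bands of strength that each held as many regions, a split chosen after the data were seen. In the weakest band of regions open in both naive WT libraries, 50.5% of all regions had no KO peak, beside 10 of 13 Trav regions. In the second band it was 25.8% beside 5 of 10, and in the third 6.65% beside 4 of 12. In the strongest band it was 0.511% beside 0 of 3. For Traj, 4 of 6 regions in the weakest band and 1 of 3 in the second had no KO peak, near the 50.5% and 25.8% of all regions. With every list limited to its 34746 strongest peaks, the naive WT libraries had 24 and 23 Trav peaks and the naive KO libraries 11 each. Of 21 Trav regions then open in both naive WT libraries, 9 had no KO peak, beside 12.5% of all regions. Over all segments, 12 of 36 regions were absent from naive KO in this setting, beside 12.5%, in place of 30 of 77, beside 20.9%. For Trbv it was 3 of 12, and 0 Traj regions were open in both naive WT libraries. With a −log10 q-value of at least 2, Trav gave 19 of 37 and Trbv 9 of 27, beside 21.8% of all regions.

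The V alpha regions that stayed open in naive KO cells were led by Trav1 (chr14:52427548-52428076), the first segment of the array. Its percentiles were 94.2 and 96.4 in naive WT and 85.9 and 79.2 in naive KO, and no Th1 or Th2 library had a peak there. The region at Trav14-1 (chr14:53553248-53554164) ranked at 83.1 and 74.6 in naive WT and at 39.5 and 47.4 in naive KO. Those at Trav13n-4 (79.8 and 73.9 against 56.7 and 34.2) and Trav14n-3 (76.4 and 77.1 against 42.0 and 59.4) followed the same order. In each of these 4 regions both KO percentiles were below both WT percentiles, and none of the 4 had a peak in Th1 or Th2 cells. The other Trav regions with a peak in all 4 naive libraries and no other library lay at Trav11n, Trav13d-4, Trav13-5 and Trav21-dv12, which makes 8 of 53. A further 17 Trav regions had a peak in both naive WT libraries and in no other library.

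In naive KO cells the Trav decrease stood beside more peaks at some genes of B cells and fewer at others. Igkv genes, the V segments of the antibody kappa chain, had 0 peaks in both naive WT libraries and 14 in each naive KO library, with 3 and 1 in Th1 KO and 0 in the other 6. Ighv genes, those of the heavy chain, went the other way. They had 68 and 69 peaks in naive WT and 35 and 35 in naive KO, so fewer V segment peaks in naive KO were not particular to the T cell receptor. Of 7 B cell marker genes, 4 had a peak in each naive WT library, and 7 and 6 in the naive KO libraries. Of the B cell genes, Ms4a1, which encodes CD20, and Cd79b, a part of the B cell receptor, had peaks in naive KO libraries only. Red cell genes with a peak numbered 3 of 4 in each naive WT library and 4 of 4 in each naive KO library, and myeloid genes 2 of 6 and 4 of 6. Peaks at the myeloid genes numbered 12 and 12 in naive WT and 9 and 8 in naive KO, with fewer at Spi1 and Itgam in KO, and 1 each at Cebpa and Csf1r in the KO libraries against 0 in WT. Of the CD8 and NK cell markers 3 of 5 had a peak in each naive WT library, and 3 and 4 in naive KO. The part of other cells, or of the shorter KO lists, in the Trav result was not tested. All 9 CD4 T cell markers had a peak in each of the 4 naive libraries, and their peaks numbered 35 and 37 in naive WT and 26 and 24 in naive KO.

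In Th1 cells only 15 segment regions were open in both libraries of each genotype, and few of these differed between genotypes. Of 15 segment regions open in both Th1 WT libraries, 2 were absent from both Th1 KO libraries (3.96% of all regions), and both were at Trbv. They lay beside the pseudogene Trbv7 (chr6:41079634-41079953), which ranked at 57.4 and 68.5, and at Trbv23 (chr6:41215727-41216281), which ranked at 11.5 and 29.9. Of 15 open in both Th1 KO libraries, 1, at Trbv11, was absent from Th1 WT (8.76%). In Th2 cells, 1 of 25 regions open in both WT libraries, at Trbv31, was absent from KO (3.83%), with WT percentiles of 25.8 and 0.867. In the other direction it was 0 of 19 (4.56%). Leaving out a library moved these counts: to between 2 and 8 for Th1 WT without Th1 KO, 1 and 5 for Th1 KO without Th1 WT, 4 and 6 for Th2 WT without Th2 KO, and 0 and 6 for Th2 KO without Th2 WT. The largest value came without Th1 WT replicate 1 for both Th1 counts, without Th2 WT replicate 2 for the third and without either Th2 KO replicate for the fourth.

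Polarized cells of both kinds lacked nearly all V alpha regions of naive cells. Of 77 segment regions open in both naive WT libraries, 56 had no peak in Th1 WT (46.6% of all regions) and 54 none in Th2 WT (42.0%). Of the 38 Trav regions, 36 (94.7%) were absent from Th1 WT and 36 from Th2 WT, and 34 had no peak in any of the 8 Th1 and Th2 libraries. The Traj counts were 8 and 7 of 9. In the weakest band 5 of 6 Traj regions were absent from Th1 WT (69.9% of all regions) and 4 of 6 from Th2 WT (62.6%). In the second band it was 3 of 3 each time (56.3% and 48.9%). The Trbv counts, 12 of 27 (44.4%) and 11 of 27 (40.7%), were close to those of the genome in the full lists. Trbj lost 0 of 3 in either comparison. Both comparisons share the naive WT libraries. In the strongest band of naive WT regions, 3 of 3 Trav regions were absent from Th1 WT and from Th2 WT, beside 21.1% and 21.3% of all regions. With lists of equal length the Trav counts were 19 of 21 for Th1 WT (39.7% of all regions) and 20 of 21 for Th2 WT (44.2%). The Trbv counts were then 4 of 12 and 6 of 12. With a −log10 q-value of at least 2, Trbv had 17 of 27 for Th1 WT (50.5%) and 13 of 27 for Th2 WT (45.9%). Trav had 35 of 37 and 36 of 37 in that setting.

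Among KO cells, 15 of 28 regions open in both naive libraries were absent from Th1 (35.2% of all regions) and 12 of 28 from Th2 (33.1%). For Trav the counts were 9 of 10 and 8 of 10. Without naive KO replicate 1 the totals over all segments were 25 of 40 (41.8% of all regions) and 21 of 40 (39.1%). Without replicate 2 they were 23 of 39 (40.0%) and 19 of 39 (37.5%). Trbv counts were 5 of 13 and 3 of 13.

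**Figure D2:**
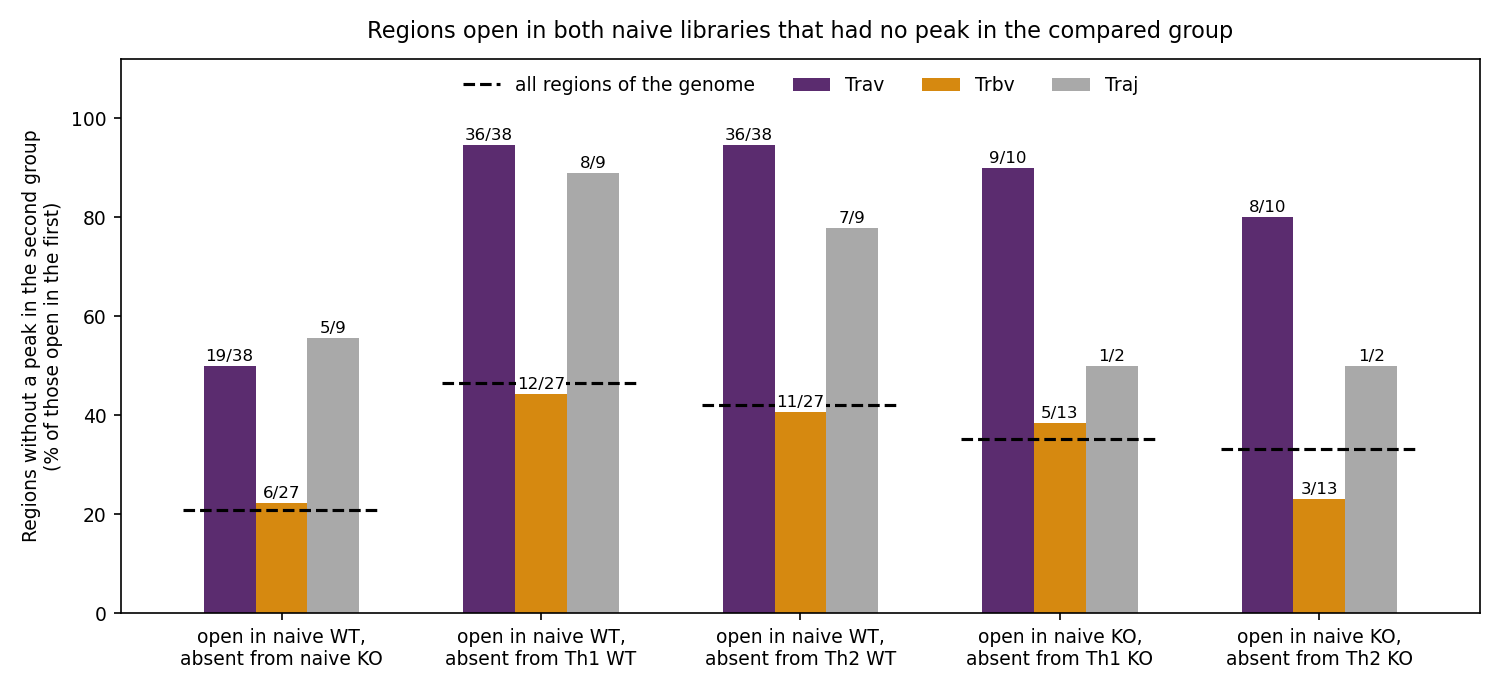
Share of the Trav, Trbv and Traj regions open in both naive libraries of a genotype that had no peak in either library of the compared group (y axis, percent, bars with counts above them), for 5 comparisons (x axis). Dashed lines give the same share over all regions of the genome. Trav stands above them in each comparison (50.0% beside 20.9% for naive KO), and Trbv near them in the comparisons from naive WT (22.2% for naive KO).

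Segment regions with a peak in polarized cells and none in naive cells were few, as were segment regions open in polarized cells at all. In the full lists their shares lay below those of all regions, least so for Th1 WT. Of 15 regions open in both Th1 WT libraries, 4 were absent from naive WT (33.3% of all regions), and of 25 open in both Th2 WT libraries, 5 were (44.0%). In KO cells the counts were 4 of 15 for Th1 (41.7%) and 7 of 19 for Th2 (48.3%). With lists of equal length they were 5 of 12 for Th1 WT (40.7%) and 3 of 11 for Th2 WT (47.7%). For KO they were then 4 of 12 for Th1 (41.0%) and 2 of 10 for Th2 (46.6%). The Th1 shares were thus close to those of all regions in WT in that setting. Without Th1 WT replicate 1 the Th1 WT count was 8 of 23 (35.8% of all regions), and without replicate 2 it was 7 of 25 (40.7%). Without Th2 WT replicate 2 the Th2 WT count was 9 of 32 (48.3%). The Th2 KO count was 11 of 28 (52.2%) without Th2 KO replicate 1 and 12 of 30 (53.7%) without replicate 2. Among V beta segments, 2 regions had a peak in all 8 polarized libraries and in no naive library. The region beside Trbv7 (chr6:41078645-41079363), whose centre lies 1249 bp before the segment start, ranked at 72.3 and 77.7 in Th1 WT, 95.7 and 93.2 in Th1 KO, 94.7 and 92.9 in Th2 WT and 84.4 and 96.0 in Th2 KO. That beside Trbv4 (chr6:41059858-41060285) ranked at 70.8 and 57.3, 54.0 and 18.2, 62.0 and 7.85, and 34.8 and 72.7 in the same order. Ranks at Trbv7 were thus high in each polarized library, and those at Trbv4 spread widely within groups.

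Further regions seen mainly in polarized cells lay at Trbv28, Trav2, Trav6-1 and Trav7n-4. The region at Trbv28 (chr6:41266549-41267283) had a peak in all 4 Th2 libraries, at 38.1, 76.3, 62.6 and 73.4, and in 1 library each of Th1 WT and Th1 KO. The region at Trav6-1 (chr14:52638772-52639313) had peaks in 6 of the 8 polarized libraries, and no naive library had one. The second region at Trav2 (chr14:52565602-52566059) had a peak in 7 of 8 polarized libraries and in 1 naive KO library, the strongest in Th1 cells (68.4 to 85.5). The region beside Trav7n-4 (chr14:53093466-53093838) had a peak in all 4 Th2 libraries (27.0 to 47.9), in 1 Th1 WT library at 5.06, and in no naive library.

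In the full lists, few segment regions were open in Th1 or Th2 cells. The shares of these that differed between Th1 and Th2 were near or below those of all regions. Of 15 regions open in both Th1 WT libraries, 1, at the Trbv15 segment, was absent from Th2 WT (5.85% of all regions). Of 25 open in both Th2 WT libraries, 3 were absent from Th1 WT (19.9%), at Trbv20, Trbv24 and Traj39. In KO cells the counts were 1 of 15, at Trbv11 (6.82%), and 3 of 19, at Trav7n-4, Traj39 and Traj20 (16.2%). The region before Traj39 (chr14:54179020-54179491) had a peak in all 4 Th2 libraries, at 46.6, 29.0, 40.1 and 14.4, in no Th1 library and in 1 naive WT library at 13.5. It was the only segment region that separated Th2 from Th1 libraries in both genotypes, and the Th2 KO values rest on the libraries with conflicting labels. Leaving out a library gave 1 to 5 regions for Th1 WT without Th2 WT (9.21% to 13.1% of all regions). For the reverse it gave 5 to 10 (23.1% to 34.7%), with the most without Th1 WT replicate 1 each time. For KO it gave 1 to 4 (10.2% to 14.8%), with the most without Th1 KO replicate 1. The reverse gave 5 to 11 (23.5% to 26.3%), with the most without Th2 KO replicate 2. With lists of equal length, Th1 WT without Th2 WT was 4 of 12 (11.7%) and Th1 KO without Th2 KO 5 of 12 (11.1%). Both lay above the genome share. The reverse counts were 1 of 11 (13.9%) and 1 of 10 (12.6%).

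Along the V alpha array the numbers of peaks differed most between groups in its downstream part. The array was cut into 5 bins of 26 segments in map order. The last bin, from Trav12-3 to Trav23, had 18 and 17 peaks in naive WT, 6 and 2 in naive KO and 0 in all 8 polarized libraries. The bin before it, from Trav16n to Trav12-2, had 11 and 12, 5 and 5, and again 0 in all 8. The first bin, from Trav1 to Trav3d-2, had 4 and 4 in naive WT, 2 and 3 in naive KO and 3 to 5 in the polarized libraries. The third bin, from Trav6n-6 to Trav8n-2, had 3 and 3 in naive WT, 2 and 3 in naive KO and 0 or 1 in the polarized libraries. In the first 2 bins the ranges of naive KO and polarized libraries overlapped, and in the last 3 they did not. Of regions open in both naive WT libraries, those absent from naive KO were 10 of 16 in the last bin, 4 of 9 in the bin before it, 0 of 3 in the third, 3 of 6 in the second and 2 of 4 in the first.

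**Figure D3:**
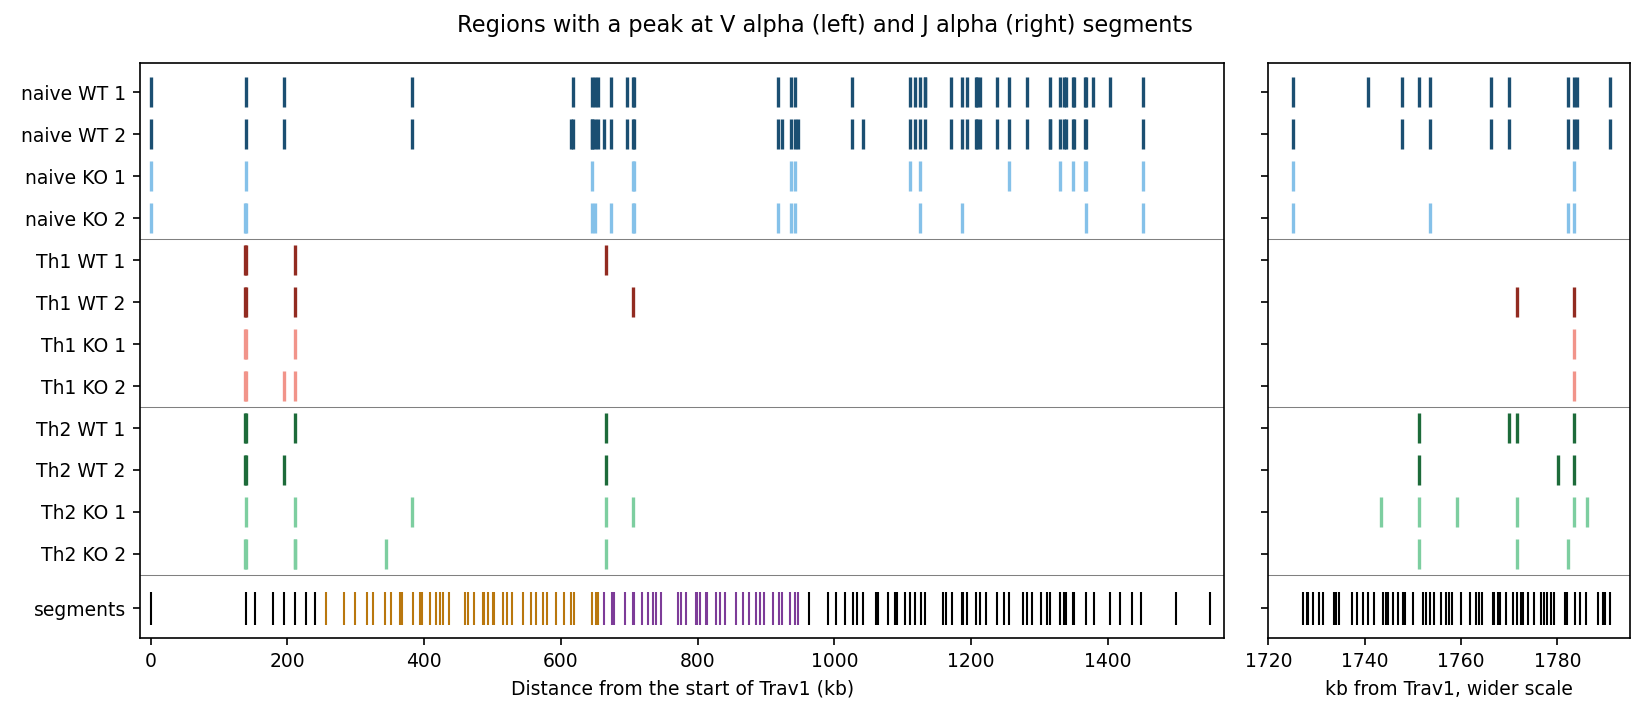
Regions with a called peak (vertical marks) in each of the 12 libraries (rows) along the V alpha array (left) and the J alpha array (right, wider scale), in kb from the start of Trav1. The bottom row marks the segments, with d copies in orange, n copies in purple and all others in black; the polarized libraries have no mark at the 52 V segments from Trav16n to Trav23.

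At the upstream end, Trav2 was the only V alpha segment with a region in all 12 libraries (chr14:52566702-52567391, centred 247 bp before the segment start). It ranked at 60.2 and 66.9 in naive WT, 7.33 and 40.8 in naive KO, 42.4 and 5.24 in Th1 WT, 75.2 and 51.6 in Th1 KO, 57.5 and 9.83 in Th2 WT and 44.9 and 68.7 in Th2 KO. The replicates of a group thus differed as much as the groups did. Trav1, the neighbour of Trav2 on the map, had no peak in the polarized libraries that kept Trav2 open. The last segment, Trav23, had no peak in any library. For J alpha, the 3 bins of 20 segments had 3 and 2, 5 and 4, and 5 and 5 peaks in naive WT from Traj61 to Traj1. Traj7 carried the most widely shared J alpha region (chr14:54211157-54211672), with a peak in 10 libraries at 4.93 to 56.3. The region before Traj61 (chr14:54152796-54153255) had a peak in the 4 naive libraries only, at 17.7 and 45.4 in WT and 12.2 and 42.8 in KO.

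The central V alpha array of C57BL/6 mice holds a duplicated block, whose copies carry d or n in their symbols. Reads of near-identical copies can be shared between them or left out, so the values at these copies are uncertain. Of 40 d copies, 5 had a peak in both naive WT libraries, as did 7 of 34 n copies and 25 of the 56 other Trav segments. A run of 25 consecutive segments, from Trav6d-6 to Trav13d-3 and all of them d copies, spanned 211 kb (chr14:52821922-53033419) without a peak within 2 kb of any of them in any library. A second run of 23, from Trav7n-5 to Trav13n-3 and all of them n copies, spanned 191 kb (chr14:53146922-53337639) in the same way. Among the segments outside the block, 15 of 26 regions open in both naive WT libraries had no peak in naive KO, beside 3 of 5 at d copies and 1 of 7 at n copies. The naive Trav difference was as large without the copies.

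Peaks also lay within 2 kb of pseudogenes, segments that cannot give a functional chain. Such a peak can lie nearer to a neighbouring segment. In naive WT cells 4 of 16 Trav pseudogenes had a peak in both libraries, against 33 of 114 other Trav segments. For Trbv it was 4 of 13 against 18 of 22, and for Traj 4 of 9 against 21 of 51. By nearest segment, 4 of 38 Trav, 2 of 27 Trbv and 3 of 9 Traj regions open in both naive WT libraries lay at a pseudogene. No Trav pseudogene had a peak in both libraries of another group. The pseudogenes Trbv7 and Trbv28 lay beside regions with peaks in polarized libraries and in no naive library.

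Many regions lay close to an end of a V segment. Of the 53 Trav regions, 35 were centred within 500 bp before the segment start on the map, where V promoters are known to lie, and 8 within 500 bp beyond the segment end, where the recombination signal sequence lies. Strand was not used here, so before and beyond follow map order. Of the 44 Trbv regions, 19 were centred within 500 bp before the start and 12 within 500 bp beyond the end. The other 10 Trav and 13 Trbv regions lay within a segment or farther away. The 5 regions of the Trav14 subfamily, that is of segments with the same number, that were open in both naive WT libraries were all centred before the start, by 172 to 351 bp. In the Trav13 subfamily 5 of 8 such regions were centred beyond the segment end and 3 before the start. At Trav13d-4, Trav13n-4, Trav13-1, Trav13-4-dv7 and Trav13-2 the distance beyond the end was 6, 62, 44, 57 and 716 bp. In naive KO cells, the regions before the start (14 of 29 absent) and those beyond the end (3 of 7 absent) of Trav segments were affected at similar shares. For Trbv it was 1 of 14 before the start and 4 of 12 beyond the end.

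**Figure D4:**
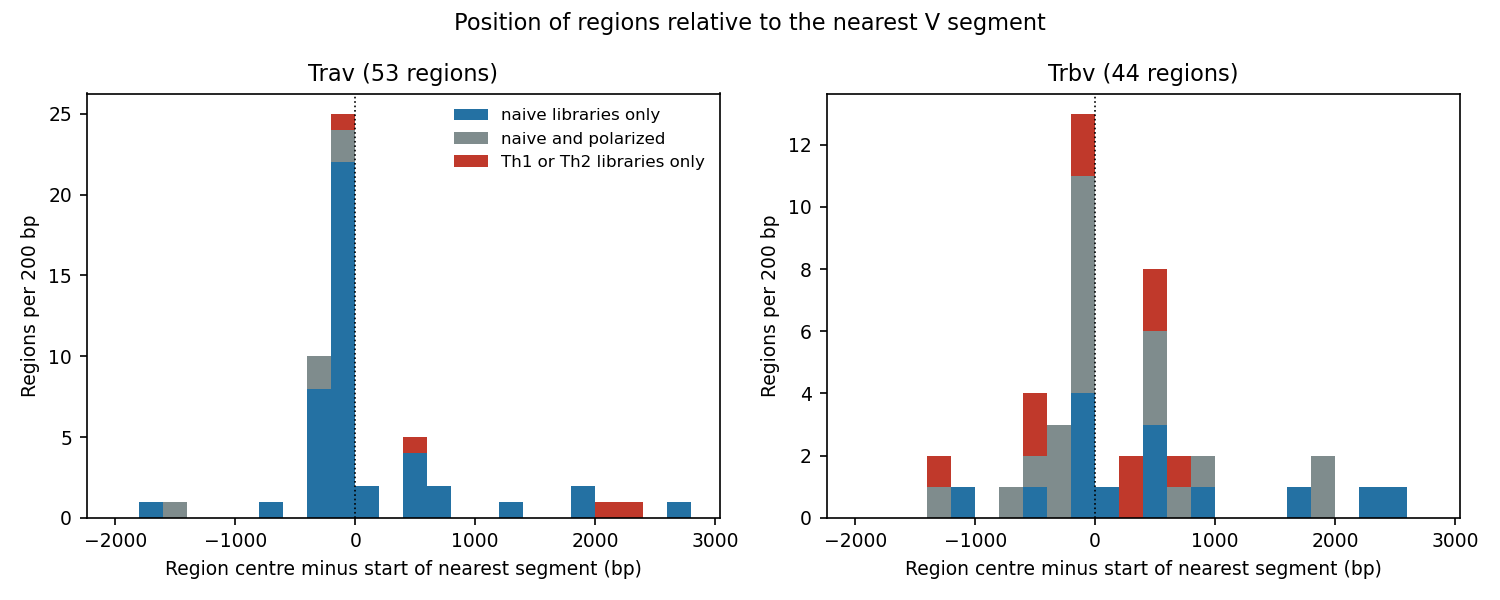
Distance in bp of the centre of each region from the start of the nearest V segment (x axis), as number of regions per 200 bp (y axis, each panel with its own scale), for 53 Trav and 44 Trbv regions, coloured by whether their peaks came from naive libraries, polarized libraries or both. Most Trav regions are naive only and sit just before the start, and Trbv has a second group of regions just beyond the segment.

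Some V beta regions had a peak in nearly every library. Of 44 Trbv regions, 7 (15.9%) had a peak in 10 or more libraries, close to the 18.2% of all regions of the genome, beside 1 of 53 Trav, 1 of 16 Traj and 3 of 3 Trbj regions. The region at Trbv1 (chr6:40890725-40891638), centred 115 bp before the segment start, was present in all 12 and ranked at 73.6 to 93.3 in the naive libraries and at 95.6 to 99.9 in the polarized libraries. Its polarized ranks were all above its naive ranks. The region at Trbv12-1 (chr6:41112841-41113696) was present in all 12 too, at 89.5 and 88.9 in naive WT, 90.5 and 90.0 in naive KO, 94.5 and 78.3 in Th1 WT, 91.1 and 91.4 in Th1 KO, 69.3 and 87.3 in Th2 WT and 85.8 and 86.0 in Th2 KO. All 4 Th2 ranks were below all 4 naive ranks there. Trbv2 (chr6:41046510-41047025) was likewise present in all 12, at 79.8 and 76.4 in naive WT, 52.9 and 52.0 in naive KO, and 5.06 to 74.5 in polarized libraries. Trbv19 (chr6:41177079-41177589) and Trbv12-2 (chr6:41118228-41118988) had a peak in 11 libraries, and Trbv5 (chr6:41062675-41063359) and Trbv31 (chr6:41559297-41559762) in 10. Trbv23 (chr6:41215727-41216281) ranked as high as Trbv1 in naive WT, at 91.8 and 93.0, and was found in 5 of 8 polarized libraries, at 7.85 to 57.5.

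Within Trbv, naive-only regions formed a contrast to these. The region beyond Trbv13-2 (chr6:41121668-41122095) ranked at 79.5 and 76.7 in naive WT and 53.7 and 60.4 in naive KO, and the second region of Trbv20 (chr6:41188848-41189308) at 59.1 and 67.7 and at 19.4 and 36.5. Neither had a peak in a polarized library. The 6 V beta regions open in naive WT and absent from naive KO lay at Trbv3, Trbv16, Trbv21, Trbv24, Trbv29 and Trbv31, and the strongest was that at Trbv31 (66.4 and 72.2), which lies beyond the constant genes. The remaining 5 ranked between 18.8 and 51.3. By position, the bin from Trbv18 to Trbv24 had 8 and 8 peaks in naive WT, 6 and 6 in naive KO, 4 and 5 in Th1 WT, 0 and 4 in Th1 KO, 6 and 6 in Th2 WT and 3 and 4 in Th2 KO. The bin from Trbv1 to Trbv7 had 8 and 8, 4 and 5, 8 and 6, 5 and 7, 6 and 7, and 7 and 6 in that order. Naive and polarized WT libraries overlapped in the bin from Trbv1 to Trbv7. The bin from Trbv13-2 to Trbv17 had 8 and 7 in naive WT, 5 and 4 in naive KO and 1 to 3 in the polarized libraries. Every V beta bin thus held peaks of polarized libraries, whereas V alpha had none in its last 2 bins.

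**Figure D5:**
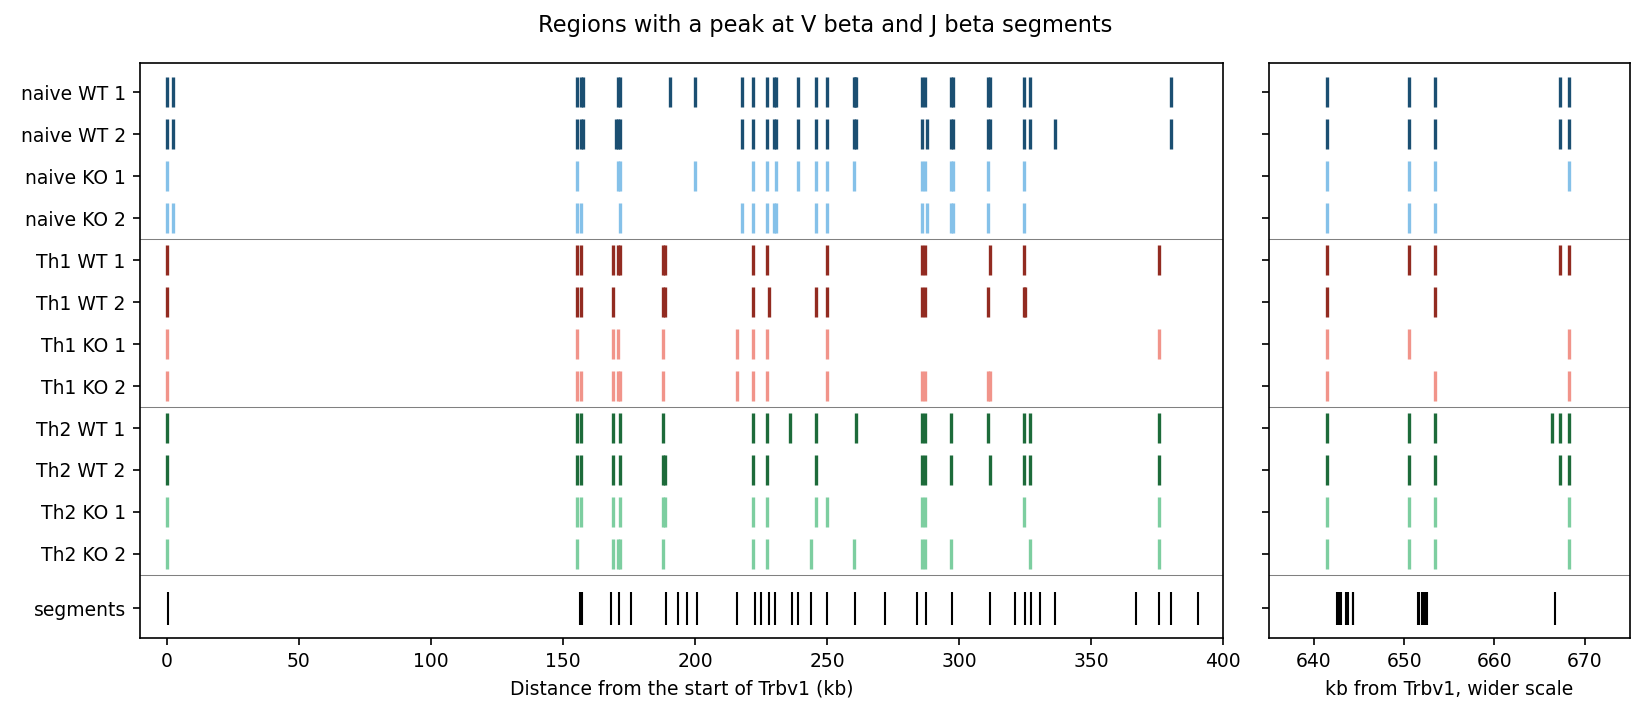
Regions with a called peak (vertical marks) in each of the 12 libraries (rows) along the V beta array (left) and at the J beta segments with Trbv31 (right, wider scale), in kb from the start of Trbv1. The bottom row marks the segments; the naive KO libraries have no mark from Trbv24 to Trbv29, and 2 regions, at Trbv4 and Trbv7, appear in all 8 polarized and no naive library.

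The J beta segments had 3 regions. The region before Trbj1-1 (chr6:41532243-41533182) was present in all 12 libraries, at 85.8 and 85.7 in naive WT, 71.2 and 89.1 in naive KO and 25.2 to 69.0 in the polarized libraries. All its naive ranks were above its polarized ranks. The region before Trbj2-1 (chr6:41541528-41542112) was present in 10 libraries and absent from 1 Th1 WT and 1 Th1 KO library. The region beyond Trbj2-7 (chr6:41544335-41545027) was present in 11, at 79.2 and 83.3 in naive WT and at 5.24 to 57.2 in the other libraries that had it.

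Of the other genes of the receptor loci, the delta genes had peaks in naive cells only. The 11 delta chain genes, which lie within the alpha locus, had 6 and 8 peaks in naive WT, 1 and 3 in naive KO and 0 in all 8 polarized libraries. Trac, the constant gene of the alpha chain, kept a peak in every library (3 and 2 in naive WT, 1 to 3 elsewhere). So did Trbc2, the second constant gene of the beta chain, with 1 or 2. Trbc1, the first, had 1 peak in both naive WT libraries, in naive KO replicate 2 and in 3 of the 8 polarized libraries. The 2 D beta genes had 1 or 2 in every library. The interval from Trac to Dad1, a gene that borders the locus and where the alpha enhancer is known to lie, had 4 and 4 peaks in naive WT, 3 and 3 in naive KO, 2 in each Th1 library and 3 to 5 in Th2 libraries. Its strongest peak ranked at 97.5 and 97.6 in naive WT, 94.3 and 94.3 in naive KO and 59.2 to 90.3 in polarized libraries. The interval from Trbc2 to Trbv31, where the beta enhancer is known to lie, had a strongest peak at 78.4 to 97.5 in all 12. These 2 intervals were chosen after the data were seen. Dad1 itself had 3 or 4 peaks in every library.

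V segments of the other antigen receptors gave a reference. The 183 Ighv genes, the V segments of the antibody heavy chain, had 68 and 69 peaks in naive WT, 35 and 35 in naive KO and 15 to 34 in polarized libraries, and the naive ranges lay above the polarized ones. The 15 gamma chain genes had between 0 and 4 peaks per library. Of the recombinase genes, Rag1 and Rag2 each had 0 to 2 peaks per library, and Dntt, which adds bases at the joints, had 4 in each naive library and 1 or 2 in each polarized library.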

How the data were processed

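The 12 peak lists were used, 2 per group, from chromosomes 1 to 19 and X. Per the submitters' processing notes, the authors aligned reads with BWA to GRCm38, handled them with Picard and called peaks with MACS2; the sources used here give neither versions and settings nor how reads that map to several places were treated. Each deposited list gave per peak a score, a fold enrichment (ratio) and the −log10 p-value and q-value, set by the authors' peak caller within a library. Only positions, the score percentile within a list and the q-value (for an alternative) entered the results.

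Peaks sharing at least 1 bp were merged into regions, and a library has a region where it has a peak in it. Positions are 1-based, from the lists; segments came from the RefSeq gene table of GRCm38.p6. Both use the same build. The code for merging and counting was run on simulated lists, where all 200 of 200 planted regions among 110642 were recovered. The lists were built from the same regions and read by the same rule, so this checks the code only, not the peak calls. No p-value was computed. Promoter sequences of the segments were not used here, so the planned motif count was not run.

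The members and lists were chosen with earlier results of these data known. Named are the first and last segment of each family, the 6 with most peaks, those at regions that differ between genotypes, the 6 with most regions in each direction of the WT cell-type comparisons, and regions in 10 or more libraries; other segments named (such as Trav11n, Trav13d-4, Trav13n-4, Trav14n-3, Trav13-4-dv7, Trav21-dv12 and Trbv13-2, and the ends of the runs and bins) were picked after their values were seen. Alternatives were a flank of 1 or 5 kb, lists of equal length, a −log10 q-value of at least 2, an overlap of 100 bp, assignment to the nearest segment, leaving out d and n copies, and leaving out each library. Python 3.11.15, numpy 2.4.6, pandas 2.3.3 and matplotlib 3.10.9 were used.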

Additional observations from a re-analysis of the deposited data

Results flagged for a closer look

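The difference between genotypes in Trav peaks per library went opposite ways in naive and in Th2 cells. Mean KO minus WT was -27.5 peaks in naive cells (16 and 16 against 42 and 45) and 1.5 peaks in Th2 cells (5 and 6 against 4 and 4). Each KO library lay below each WT library in naive cells and above each in Th2 cells. The separation in Th2 cells was lost in lists of equal length (KO 1 and 2 against WT 2 and 0) and with a −log10 q-value of at least 2 (3 and 4 against 4 and 1), while that in naive cells held in both. The difference between the cell types was not tested.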

How the results depend on the processing

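No paired analysis was possible because every result is a count of called regions and comes from no test, and the replicate numbers name no shared animal. An overlap of at least 100 bp could not change the 18 counts of regions, because the shortest peak was 200 bp. It changed 5 of the 6 counts of segments with a peak in both libraries. These became 94 in naive WT, 40 in naive KO, 26 in Th1 KO, 37 in Th2 WT and 38 in Th2 KO. Leaving out d and n copies kept the 6 counts of segments within 1.5 times. In lists of equal length, regions open in both libraries of the first group and absent from the second numbered 12 for naive WT without naive KO, 1 for naive KO without naive WT, 23 for naive WT without Th1 WT, 26 for naive WT without Th2 WT, 3 for Th2 WT without naive WT, 4 for Th1 WT without Th2 WT, 1 for Th2 WT without Th1 WT, 2 for Th2 KO without naive KO, 5 for Th1 KO without Th2 KO and 1 for Th2 KO without Th1 KO. The construction of that setting removes weak peaks of the longer lists. With a −log10 q-value of at least 2, Th1 KO without Th1 WT was 2 of 14 (7.87%) and Th2 WT without naive WT 3 of 17 (43.3%). Th1 WT without Th2 WT was 2 of 11 (6.00%), and the reverse 6 of 17 (20.3%). Th1 KO without Th2 KO was 3 of 14 (6.85%). With 1 kb flanks Th2 WT without naive WT was 3 of 22 (44.0%). With 5 kb flanks it was 8 of 32 (44.0%). Th2 WT without Th2 KO was then 2 of 32 (3.83%) and Th1 KO without Th2 KO 2 of 21 (6.82%). Where the cause of such a change is not part of the setting, the cause was not tested.

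Leaving out each library gave 0 to 1 for naive KO without naive WT, 2 to 8 for Th1 WT without Th1 KO, 1 to 5 for Th1 KO without Th1 WT, 4 to 6 for Th2 WT without Th2 KO, 0 to 6 for Th2 KO without Th2 WT, 4 to 8 for Th1 WT without naive WT, 5 to 9 for Th2 WT without naive WT, 1 to 5 for Th1 WT without Th2 WT, 5 to 10 for Th2 WT without Th1 WT, 16 to 25 for naive KO without Th1 KO, 13 to 21 for naive KO without Th2 KO, 7 to 12 for Th2 KO without naive KO, 1 to 4 for Th1 KO without Th2 KO and 5 to 11 for Th2 KO without Th1 KO. The other library of the group then decides alone, which loosens the rule, so no count can fall. The share of all regions rose in each case too. The counts of naive WT without naive KO, Th1 WT and Th2 WT rose by less than 1.5 times, which by itself shows no stability.

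Segments with a peak in both libraries were 27 in naive KO, 16 in Th1 WT, 12 in Th1 KO, 22 in Th2 WT and 19 in Th2 KO with 1 kb flanks. With 5 kb flanks they were 40 in Th1 WT, 43 in Th1 KO, 64 in Th2 WT and 69 in Th2 KO. In lists of equal length they were 53 in naive WT, 15 in Th1 KO, 24 in Th2 WT and 19 in Th2 KO, and with the stricter q-value 15 in Th1 WT and 17 in Th1 KO. Assigned to the nearest segment, they were 27 in naive KO, 14 in Th1 WT, 14 in Th1 KO, 22 in Th2 WT and 19 in Th2 KO. Naive WT had the most segments in each of these settings. Depth is unknown, so absence of a peak shows no more than that none was called.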
